A study of Heterocephalus glaber with 2 samples.

Results

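Scavenger and lipoprotein receptors are the cell surface proteins through which a cell takes up lipoproteins, modified lipids and other ligands. The 10 genes described here, out of 37520 listed in both libraries, were chosen by name: *Msr1*, *Scara3*, *Scara5* and *Colec12* of scavenger receptor class A, *Scarb1* and *Cd36* of class B, *Olr1* of class E, *Vldlr* and *Lrp8* of the LDL receptor family, and *Sorl1*, a sorting receptor that carries LDL receptor repeats. Each symbol had a single entry, and 9 of the 10 averaged 1 FPKM or more over both libraries, FPKM being a fragment count scaled to exon length and library size. Because of the scaling to length, levels of different genes can be set side by side.

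The RNA-seq compared 1 library of NSFs, primary skin fibroblasts of adult naked mole-rats (NMRs), labelled as the control knockdown (*shControl*, an empty vector by the methods of the study) with 1 library of NSFs carrying *shβ-catenin*, a lentiviral hairpin against *β-catenin*. Cells of both groups were transduced with lentivirus and selected with puromycin, and a single hairpin was sequenced. The comparison addressed how β-catenin affects cholesterol-rich lipid droplets in these cells. There are no replicates, so no difference below has a replicate error or a test, and every fold-change compares 2 libraries rather than 2 conditions.

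LDL receptor family members bind apolipoprotein E and other ligands, enter through coated pits and return to the surface after unloading. Scavenger receptors bind a wide range of modified lipoproteins and other polyanionic or lipid ligands, and uptake through the class A receptors of macrophages is not shut off by cell cholesterol. In macrophages, *Msr1*, *Cd36* and *Scarb1* are best known for lipid loading and cholesterol exchange.

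*Ctnnb1*, the gene of β-catenin, was at 530 FPKM in shControl cells against 69.0 FPKM after knockdown, 7.69-fold lower. All 10 fibroblast markers examined were above 0 in both libraries, with *Vim* (vimentin) at 3363 and 2804 FPKM and *Col1a1* (a type I collagen chain) at 1258 and 856 FPKM. Of the 8 that averaged 1 FPKM or more, 6 were lower and 2, *Fn1* and *Dcn*, higher, with a median log2 fold-change of −0.59. *Col3a1*, another collagen chain, was at 1067 and 542 FPKM, and *Pdgfrb*, a growth factor receptor, at 64.5 and 36.8 FPKM. *Dcn*, *Lum* and *Thy1* were under 1 FPKM in shControl, at 0.316, 0.574 and 0.303 FPKM, and were at 2.42, 1.38 and 1.39 FPKM after knockdown. The part of this shift in the receptor levels was not tested. Genes above 0 numbered 20198 in shControl and 20648 in *shβ-catenin* cells, and read depth was not given. Fold-changes are log2 of the ratio of FPKM plus 0.1, and plain folds are ratios of the FPKM as deposited. The median log2 fold-change was −0.01 over the 13097 compared genes, those that averaged 1 FPKM or more. Of these compared genes, 6372 were higher and 6725 lower.

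The receptor genes differed in both directions. In *shβ-catenin* cells 5 of the 10 were higher and 5 lower, with *Cd36* among the lower only as deposited and not under median ratio or upper quartile scaling. Their summed level was nearly even, 36.4 FPKM in shControl cells and 39.1 FPKM after knockdown. By log2 fold-change, and among the 9 genes that averaged 1 FPKM or more, *Msr1* was the 1 gene more than 4-fold higher, a fold that 0.680% of all compared genes passed, and none was more than 4-fold lower, against 0.206% of all compared genes. Past 2-fold, counted in the same way, 1 was higher (*Msr1*; 3.27% of compared genes) and 1 was lower (*Colec12*; 2.05%). *Sorl1*, below the filter, was 2.08-fold higher as deposited. Over the 9 genes the median log2 fold-change was −0.0035, the value of *Cd36* (0.01 and 0.03 under the same scalings), and over all 10 it was 0.08. In bulk RNA, fewer cells with a transcript and less of it per cell cannot be told apart.

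**Figure D1:**
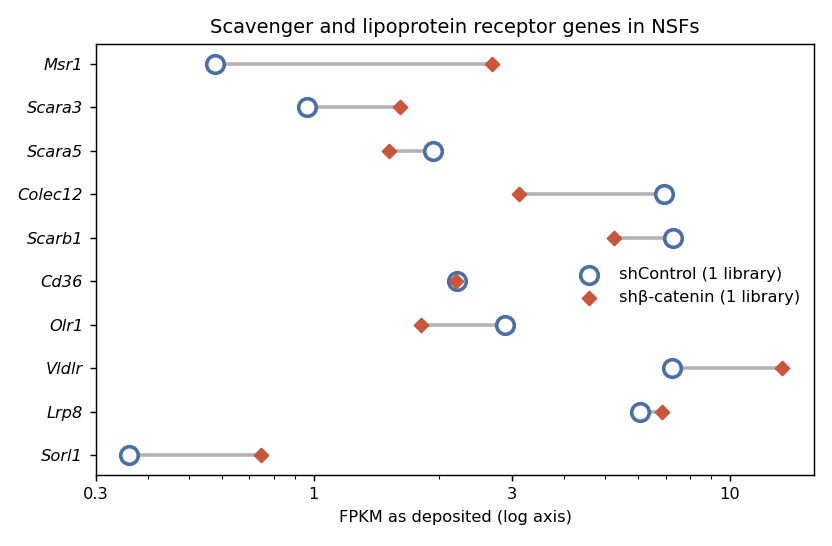
FPKM of each receptor gene on a log axis in the shControl library (open circles) and the *shβ-catenin* library (diamonds), 1 library each, with no error bars because there are no replicates. The longest line is that of *Msr1*, from 0.577 to 2.68 FPKM, and the symbols of *Cd36* lie on each other at 2.21 and 2.20 FPKM.

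The 4 class A genes split evenly. *Msr1*, the macrophage scavenger receptor that binds acetylated and oxidized LDL, was at 0.577 FPKM in shControl cells against 2.68 FPKM after knockdown. The fold was 4.65 as deposited and the log2 fold-change 2.04, and with a pseudocount of 1 it was 1.22, under 4-fold. *Msr1* is a gene that the study itself picked from these libraries, so its direction is not independent evidence. *Msr1* and *Scara3* entered the filtered set through their levels in *shβ-catenin* cells, both being below 1 FPKM in shControl.

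*Scara3*, a class A member known in human cells as a stress-induced protein that protects against oxidants, was at 0.961 FPKM in shControl cells against 1.61 FPKM after knockdown, 1.68-fold higher (log2 fold-change 0.69). *Scara5*, known in mice as a receptor of L-ferritin, differed the other way, at 1.93 and 1.52 FPKM, 1.27-fold lower (log2 fold-change −0.33). *Colec12*, a scavenger receptor with a collagen-like stalk and a C-type lectin domain, was at 6.93 FPKM in shControl cells against 3.11 FPKM after knockdown. Of the 10 genes it was lower by the largest fold, 2.23-fold as deposited with a log2 fold-change of −1.13 (−0.95 with a pseudocount of 1, under 2-fold). The level of *Colec12* was 12.0 times that of *Msr1* in shControl and 1.16 times in *shβ-catenin* cells. The class A sum was 10.4 FPKM in shControl cells and 8.92 FPKM after knockdown.

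*Scara5* was the single gene of the 10 whose values gave whole numbers of fragments. Once the difference in depth between the libraries was taken out, its FPKM ratio was that of 84 shControl fragments to 55 *shβ-catenin* fragments, so that 1 fragment was worth 0.0230 and 0.0276 FPKM. At these numbers the ratio of *shβ-catenin* to shControl had an exact 95% interval (Clopper-Pearson) that ran from 0.550 to 1.12 around a ratio of 0.787, which includes no difference. This interval covers counting error only, and would be narrower if a multiple of the pair was counted. Of genes averaging 1 to 3 FPKM, 47.7% gave such whole fragments and 3.16% did so on average at 3 depth factors set wrong on purpose. The other 9 genes matched no pair with a total of up to 200, and their counting error is not known.

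Both class B genes among the 10 were lower or even. *Scarb1*, the HDL receptor that exchanges cholesteryl ester and free cholesterol with lipoproteins, was the highest of the 10 in shControl at 7.28 FPKM and stood at 5.26 FPKM in *shβ-catenin* cells, 1.38-fold lower (log2 fold-change −0.46). *Cd36*, which takes up long-chain fatty acids and oxidized LDL, was the most even gene of the set, at 2.21 FPKM in shControl cells and 2.20 FPKM after knockdown (log2 fold-change −0.0035). Its sign turned with the scaling, to 0.01 with median ratio and 0.03 with upper quartile scaling. *Olr1*, the class E receptor LOX-1 of oxidized LDL, first known from endothelial cells, was lower as well, at 2.88 and 1.81 FPKM (1.59-fold, log2 fold-change −0.64). Its identity rests on the deposited symbol alone, which had no match in the RefSeq gene table. Those of the 10 described here as binding oxidized LDL did not share a direction, with *Msr1* higher, *Cd36* even and *Olr1* lower.

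The LDL receptor family genes were higher. *Vldlr*, which binds triglyceride-rich particles with apolipoprotein E and also reelin, was at 7.24 FPKM in shControl cells against 13.3 FPKM after knockdown, 1.84-fold higher (log2 fold-change 0.87). *Lrp8*, also named ApoER2, a receptor of reelin, apolipoprotein E and selenoprotein P, was at 6.07 and 6.86 FPKM, 1.13-fold higher (log2 fold-change 0.17). *Sorl1*, which sorts the amyloid precursor protein and other cargo between the Golgi and endosomes, was the lowest gene in both libraries, at 0.359 and 0.747 FPKM. Its fold was 2.08 as deposited, but the log2 fold-change was 0.89 with the pseudocount of 0.1 and 0.36 with 1, and its mean of 0.553 FPKM kept it out of the filtered set.

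**Figure D2:**
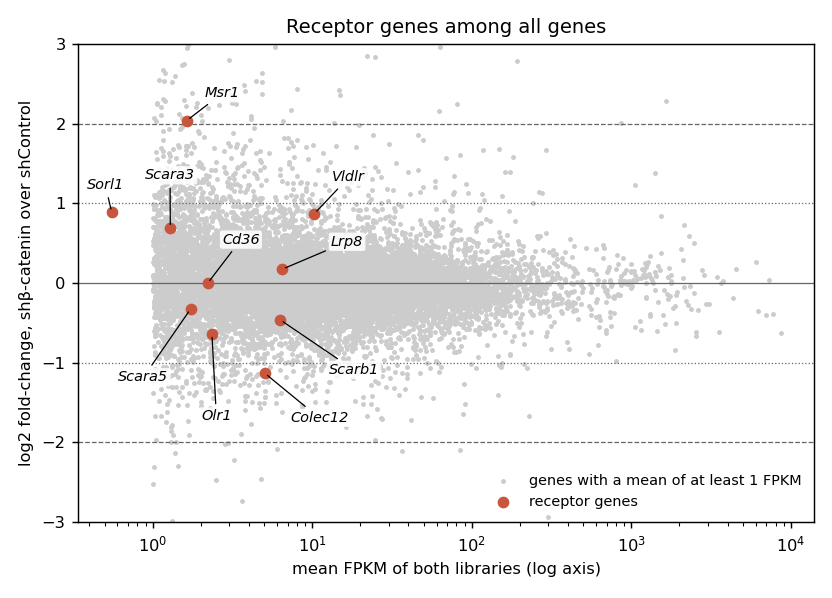
Mean FPKM of both libraries (log axis) against the log2 fold-change, *shβ-catenin* over shControl, of the 13097 compared genes (grey) and the 10 receptor genes (red), with dotted lines at 2-fold and dashed lines at 4-fold. *Msr1* lies just past the upper 4-fold line and *Colec12* just past the lower 2-fold line. A further 40 grey points lie beyond the plotted range of 3 log2 units in either direction.

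The order of levels changed at the top. In shControl, *Scarb1*, *Vldlr*, *Colec12* and *Lrp8* lay close together between 6.07 and 7.28 FPKM, and the other 6 genes lay at 2.88 FPKM or below. In *shβ-catenin* cells *Vldlr* stood alone at 13.3 FPKM, 1.94 times *Lrp8* and 2.53 times *Scarb1*, to which it was close in shControl (ratio 0.995). *Msr1* held the ninth place in shControl and the fifth in *shβ-catenin* cells, between *Colec12* and *Cd36*. Without replicates no spread can be set beside these neighbours.

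As a share of the summed FPKM of the 10 genes, *Vldlr* and *Lrp8* together made up 36.5% in shControl and 51.6% in *shβ-catenin* cells. *Vldlr* alone accounted for 19.9% and 34.0%. The class A share was 28.6% and 22.8%, with *Colec12* at 19.0% and 7.96% and *Msr1* at 1.59% and 6.86%. Class B held 26.0% and 19.1%, and *Olr1* 7.90% and 4.64%. Among all genes above 0 in a library, *Vldlr* exceeded 60.3% of them in shControl and 72.0% in *shβ-catenin* cells, and *Msr1* 30.9% and 46.8%.

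**Figure D3:**
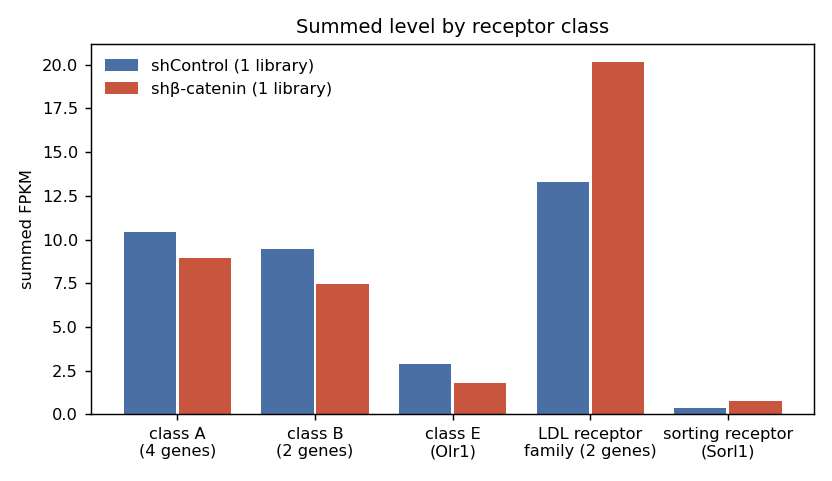
Summed FPKM of the receptor genes by class in shControl (blue bars) and *shβ-catenin* cells (red bars), 1 library each, without error bars. The LDL receptor family bars stand at 13.3 and 20.2 FPKM, while the bars of class A, class B and *Olr1* are lower in the *shβ-catenin* library.

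The other members of the LDL receptor family, a larger set, summed to 153 FPKM in shControl cells and 161 FPKM after knockdown. Of 10 measured, 8 averaged 1 FPKM or more. Of these 6 were higher and 2 lower, none past 2-fold, and the median log2 fold-change was 0.15 beside −0.01 over all compared genes (0.28 over all 10 without the filter). *Lrp1*, a large endocytic receptor of apolipoprotein E and many protease complexes, was the highest at 54.6 FPKM in shControl cells and 58.8 FPKM after knockdown. The largest differences were in *Lrp1b* (0.769 and 1.49 FPKM, so past the filter only through the second library) and *Lrp6*, a Wnt co-receptor (14.5 and 25.5 FPKM). Their log2 fold-changes, 0.87 and 0.81, lay near the 0.87 of *Vldlr*. *Sort1* and *Sorcs2*, sorting receptors that share the VPS10 domain with *Sorl1*, were at 2.84 and 4.97 FPKM and at 1.31 and 2.48 FPKM. *Sorcs1* and *Sorcs3* were listed at 0 in both libraries.

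Of 12 other scavenger receptors measured, 5 averaged 1 FPKM or more. Of these 3 were higher and 2 lower, 1 of them past 2-fold, and the median log2 fold-change was 0.08. Over the 8 that were above 0 in a library, 6 were higher and 2 lower, with a median of 0.45. *Scarf2*, a class F receptor, was the highest of them, at 76.2 FPKM in shControl cells and 80.6 FPKM after knockdown, above each of the 10 genes. *Scarb2*, a class B member outside the 10, was nearly even at 56.3 and 55.8 FPKM, and was named after its values were seen. The largest differences were in *Cd68*, a lysosomal class D member of macrophages (11.9 and 31.1 FPKM), and *Megf10*, a receptor for engulfment of dying cells (2.04 and 3.60 FPKM). *Marco*, another class A receptor of macrophages, was listed at 0 in both libraries, as were *Cd163*, *Stab2* and *Clec7a*. *Ywhaz*, which nearly all cells express, was also listed at 0 in both, so such an entry does not show absence.

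Genes that help these receptors fold, enter the cell or be degraded were close to even. Of 12 measured, 11 averaged 1 FPKM or more. Of these 5 were higher and 6 lower, none past 2-fold, and the median log2 fold-change was −0.02, with the sign turned under upper quartile scaling (0.01). *Lrpap1*, the chaperone that keeps ligands off LDL receptor family members in the secretory pathway, was at 132 and 145 FPKM. The largest differences were in *Pdzk1*, the adaptor that stabilizes the *Scarb1* protein in mouse liver, at 1.46 FPKM in shControl cells and 1.11 FPKM after knockdown, and in *Vps35*, a subunit of the retromer that sorts cargo with *Sorl1*, at 45.7 and 37.0 FPKM.

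Of 12 ligand and cargo genes, 10 averaged 1 FPKM or more. Of these 7 were higher and 3 lower, and the median log2 fold-change was 0.09. Among these 10, the 2 past 2-fold were *Lpl*, the lipoprotein lipase that also bridges particles to *Vldlr* (2.14 and 4.87 FPKM), and *Clu*, an apolipoprotein that binds *Vldlr* and *Lrp8* (163 and 360 FPKM). The highest was *Ftl*, the L-ferritin chain and *Scara5* ligand, at 3353 and 3524 FPKM. *Reln*, the reelin gene, was at 0.0637 and 0.1001 FPKM. *Selenop*, a ligand of *Lrp8*, was at 0.804 and 0.102 FPKM, 7.87-fold lower as deposited. Both lay below the filter and were named after their values were seen. Over all 12 without the filter, 8 were higher and 4 lower.

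**Figure D4:**
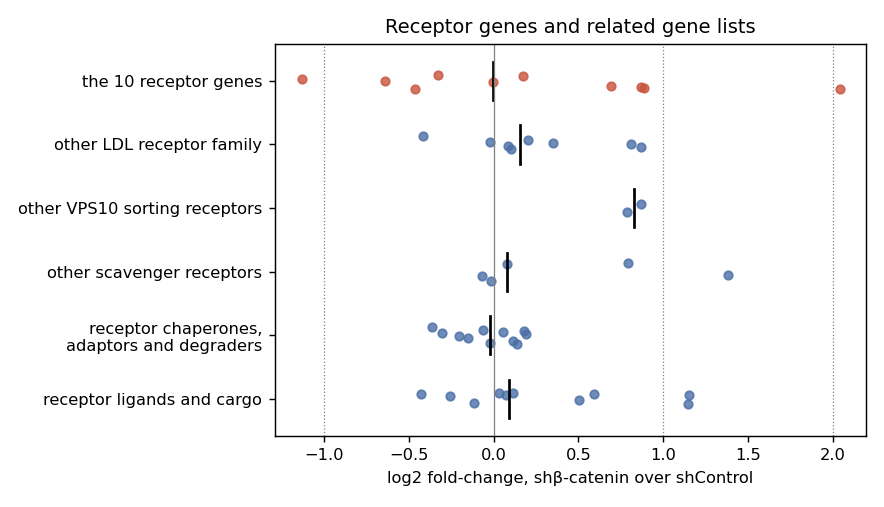
Log2 fold-change, *shβ-catenin* over shControl, of the 10 receptor genes (red) and of members of the related gene lists that averaged 1 FPKM or more (blue), each point a gene, with the median as a black bar (for the receptor genes, over the 9 that did so). The receptor genes range from −1.13 to 2.04, and the medians of the lists lie between −0.02 and 0.83, the last from 2 genes.

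Markers of macrophages, the cells in which *Msr1* is best known, were higher in part. Of 11 measured, 8 were higher, 1 lower and 2, *Ptprc* and *Spi1*, were listed at 0 in both libraries. The lower gene was *Tyrobp*, at 0.828 FPKM in shControl cells and 0.498 FPKM after knockdown. Of all 22124 genes above 0 in a library, 11871 were higher. Only 3 of the 11, *Lyz*, *Cd14* and *Fcer1g*, averaged 1 FPKM or more. Among the 8, *Aif1* had a fold of 1.20, the same as the relative depth of the libraries, as 1 fragment in each would give. The summed level of the 11 was 60.9 FPKM in shControl cells and 179 FPKM after knockdown. It came mostly from *Lyz* (41.5 and 127 FPKM) and *Cd14* (17.4 and 49.9 FPKM), neither confined to macrophages. *Csf1r*, the receptor that macrophages depend on, was at 0.0228 and 0.0547 FPKM, and *Adgre1*, another defining marker, was at 0 and 0.0214 FPKM. The folds of *Csf1r* and *Itgam*, both 2.405, were close to what 1 fragment in shControl and 2 in *shβ-catenin* cells would give. The part of such cells in the *Msr1* level was not tested.

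Endothelial markers, relevant to *Olr1*, *Scarb1* and *Vldlr*, were higher in 6 of 10 and listed at 0 in both libraries for 4. Among all 22124 genes above 0 in a library, 11871 were higher. Their sum was 2.06 FPKM in shControl cells and 5.18 FPKM after knockdown, mostly from *Egfl7* (1.62 and 2.60 FPKM) and *Pecam1*, an adhesion molecule of endothelium and blood cells (0.275 and 2.08 FPKM, 7.55-fold). Only these 2 averaged 1 FPKM or more, *Pecam1* only through its level in *shβ-catenin* cells. *Cdh5*, the cadherin of endothelium, was at 0 and 0.0680 FPKM. Adipocyte markers, relevant to *Cd36* and *Vldlr*, summed to 8.49 and 12.4 FPKM over 6 measured, 3 higher and 1 lower, with *Plin1* and *Lep* listed at 0 in both and *Adipoq* at 0 and 0.0395 FPKM. *Pparg*, the regulator of adipocyte differentiation, made up most of that sum in *shβ-catenin* cells, at 2.92 and 7.28 FPKM. Also counted as higher were *Cfd*, nearly even at 4.11 and 4.12 FPKM, and *Adipoq*. The 6 keratinocyte markers measured summed to 1.29 and 1.64 FPKM, with *Krt5* and *Krt1* listed at 0 in both. The part of these cell types in the receptor levels was not tested.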

How the data were processed

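RNA of 1 shControl and 1 *shβ-catenin* library was analysed. According to the methods of the study and the submitters' processing notes, the authors prepared stranded mRNA libraries, mapped paired-end reads to the NMR genome with TopHat2 2.0.13, Bowtie2 2.2.3 and SAMtools 0.1.19, and computed the deposited FPKM values with Cufflinks 2.2.1. The gene annotation and the strand setting are not given in the sources used here. FPKM values were used as deposited.

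Log2 fold-changes were computed after adding 0.1 FPKM to each value, so that folds of low genes come out too small. Counts over many genes were limited to a mean of 1 FPKM or more, with thresholds of 4-fold and 2-fold. The 4-fold threshold is that of the study, used here with the pseudocount and this filter. With 1 library per group no test was run. The relative depth was the FPKM ratio most frequent among 5239 genes under 1 FPKM in both libraries (1.20, within rounding for 657 genes). Whole fragments were the smallest pair with a total of up to 200 that gave the FPKM ratio at this depth within the rounding of the 6 deposited digits. This search was extended to genes above 1 FPKM after the data were seen. Depth factors set wrong by 1.4, 2.3 and −1.3% showed how often a pair was found at a wrong depth. The procedure was tested on simulated data.

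The receptor genes and the lists were chosen with earlier results of these data known. From the lists, 2 genes were left out afterwards, not for their values, and are not reported here. Named beside the receptor genes were *Ctnnb1*, up to 2 genes per list with the largest fold-change at a mean of at least 1 FPKM, the most abundant gene of each list, and, as stated, genes chosen after their values were seen. Markers named beside a receptor were also chosen after their values were seen. The symbols of 9 of the 10 genes, all but *Olr1*, were found in the RefSeq gene table of H.glaber_assembly_v1.0, used for names and gene order only. Alternatives were pseudocounts of 0.01 and 1, median ratio and upper quartile scaling, no filter, a minimum mean of 5 FPKM, a 2-fold threshold and symbols with a single entry. Without replicates, an alternative was taken to move a log2 fold-change where it shifted it by 0.1 or more. Computation used Python 3.11.15 with scipy 1.17.1, pandas 2.3.3, numpy 2.4.6 and, for plots, matplotlib 3.10.9.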

Additional observations from a re-analysis of the deposited data

How the results depend on the processing

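Of 97 values recomputed under the alternatives, 82 were the same within the stated tolerance and 15 moved. Part of the 82 was fixed in advance. Both scalings shifted log2 fold-changes by less than the tolerance of 0.1. Each receptor gene had a single entry, so the setting of symbols with a single entry could not change them. All 15 moves came from the pseudocounts, the filters and the fold threshold. Median ratio and upper quartile scaling shifted every gene by about 0.02 and 0.04 log2 units and turned the sign of *Cd36* alone among the 10 receptor genes, and with it the median of the 9 that averaged 1 FPKM or more (0.01 and 0.03). The median of the chaperones, adaptors and degraders, −0.02, was 0.01 with upper quartile scaling and 0.02 without the filter and at a minimum mean of 5 FPKM. A pseudocount of 0.01 gave log2 fold-changes of 2.20 for *Msr1* and 1.04 for *Sorl1*. A pseudocount of 1 gave 1.22 for *Msr1*, 0.41 for *Scara3*, −0.22 for *Scara5*, −0.95 for *Colec12*, −0.46 for *Olr1*, 0.36 for *Sorl1* and 0.61 for the median of the other VPS10 receptors, and left 0 genes more than 4-fold higher. At a minimum mean of 5 FPKM, which leaves out *Msr1*, 0 genes were more than 4-fold higher and the median of the receptor genes was −0.14. At a 2-fold threshold 1 gene, *Colec12*, was lower. Without the filter the median of the receptor genes was 0.08, with its sign turned. That of the other scavenger receptors was then 0.45 in place of 0.08 and that of the other LDL receptor family genes 0.28 in place of 0.15, since more genes of low level then counted. Every fold-change rests on 1 library per group, and for 9 of the 10 genes counting error is unknown. No paired analysis was possible because each group holds a single library.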

Other observations

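*Scara3* lies next to *Clu* in the gene order of both the deposited files and the RefSeq table of H.glaber_assembly_v1.0. *Scara3* was 1.68-fold higher in *shβ-catenin* cells and *Clu* 2.21-fold higher, a pair noticed after the values were seen.

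Below the filter of 1 FPKM, *Scarf1*, a class F scavenger receptor of endothelial cells that binds modified LDL, was at 0.201 FPKM in shControl cells and 0.856 FPKM after knockdown. It was 4.25-fold higher as deposited, and the study lists it among its upregulated genes from these libraries. *Dab1*, the adaptor that carries the reelin signal from *Vldlr* and *Lrp8*, was at 0.531 and 0.889 FPKM. Both were chosen after their values were seen.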
